A study of Arabidopsis thaliana with 10 samples.

Results

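The 200 genes described here were those whose transcript level varied most between 5 wild-type Arabidopsis thaliana shoot samples. They were taken from the 9012 nuclear rows with a mean of at least 10 FPKM over the 5 wild-type libraries, out of 32824 rows in all, as the 200 with the largest SD divided by the mean over those libraries. This quotient is called the variation ratio below. Wild-type values alone chose the members, so their wild-type spread is given as a description without a test, while the other 5 libraries had no part in the choice.

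The overexpression libraries (OE1 to OE5) came from Arabidopsis with the oilseed rape gene BnaC02.TPS8, of the trehalose-6-phosphate synthase family, under the 35S promoter, which is active in most plant cells. Sample titles name the line OE-11 but the series description O2, which leaves its identity uncertain. The wild-type libraries (WT1 to WT5) came from the accession Col-0, grown in the same way. All plants were 10 days old and untreated, all were raised on diluted Murashige and Skoog agar with 1% sucrose, and total RNA was taken from shoots. FPKM are fragments scaled to the transcript's length and the library's total, so levels can be compared between genes of longer transcripts. For transcripts about as short as a sequenced fragment, or shorter, the scaling to length is unreliable. Their FPKM are therefore uncertain as levels beside those of longer genes. Separate cultures are not stated for the 5 samples of a genotype, and their spread may be partly technical.

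Genes that vary between plants raised alike often belong to pathways that answer quickly to the plant's supply of sugar, sulfate, light or water, to touch, or to microbes. Trehalose 6-phosphate, the product of active trehalose-6-phosphate synthases, signals sucrose supply and restrains the kinase SnRK1. Under carbon shortage SnRK1 turns on genes for the breakdown of amino acids and storage compounds. Whether the protein of the overexpressed gene makes trehalose 6-phosphate was not measured here. APS reductase sets much of the flow of sulfate into cysteine, and its genes answer to sulfur supply.

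The FPKM columns summed to between 929271 and 963710 in OE and between 918877 and 996313 in WT. From the smallest steps of weakly expressed genes, and for an assumed fragment length of 200 nt, an estimated 18400000 to 23400000 fragments stood behind a library. Plastid genes took 0.442% to 2.90% of the FPKM total in OE and 0.552% to 4.28% in WT, with OE4, WT2 and WT4 the highest. Of 15 root markers, 12 stayed under 1 FPKM in every library. Their summed level was 87.2 to 159.6 FPKM in OE and 107 to 155 FPKM in WT, nearly all of it PYK10, a beta-glucosidase of root cells and seedlings, at a mean of 124 FPKM. The 12 seed markers summed to at most 0.737 FPKM in OE and 0.908 FPKM in WT, with CRU2, CRU3, SESA3 and SESA5 at 0 throughout. As these were whole shoots, fewer cells of a type and less RNA per cell cannot be told apart in any value below.

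The members fell into 2 kinds by transcript length, a split at 400 nt that was chosen after the members had been seen. Of the 200, 98 had an annotated transcript under 400 nt and 102 a longer one. All 102 longer members were protein-coding. The 98 shorter members comprised 26 long non-coding RNAs as annotated, 21 protein-coding rows, 19 antisense RNAs, 14 small nucleolar RNAs (snoRNAs), 11 spliceosomal small nuclear RNAs (snRNAs), 4 microRNA precursors, 2 other non-coding RNAs and 1 ribosomal RNA. Short rows were rare among the rows that could have been chosen, those with a WT mean of at least 10 FPKM: of the 68 under 200 nt, 60 were members (88.2%), whereas 81 of the 7428 rows of 1000 nt or more were (1.09%). Every one of the 14 snoRNA, 11 snRNA and 4 microRNA precursor rows that passed 10 FPKM was a member. At least 1 WT library was listed at 0 for 49 members, all of them under 400 nt, among them 12 of the 14 snoRNAs and 9 of the 11 snRNAs. A row at 0 in most WT libraries passes 10 FPKM only through those where it is high, which also give it a large ratio. The high shares of members among short rows therefore follow in part from the rule, and nothing is read from them.

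**Figure D1:**
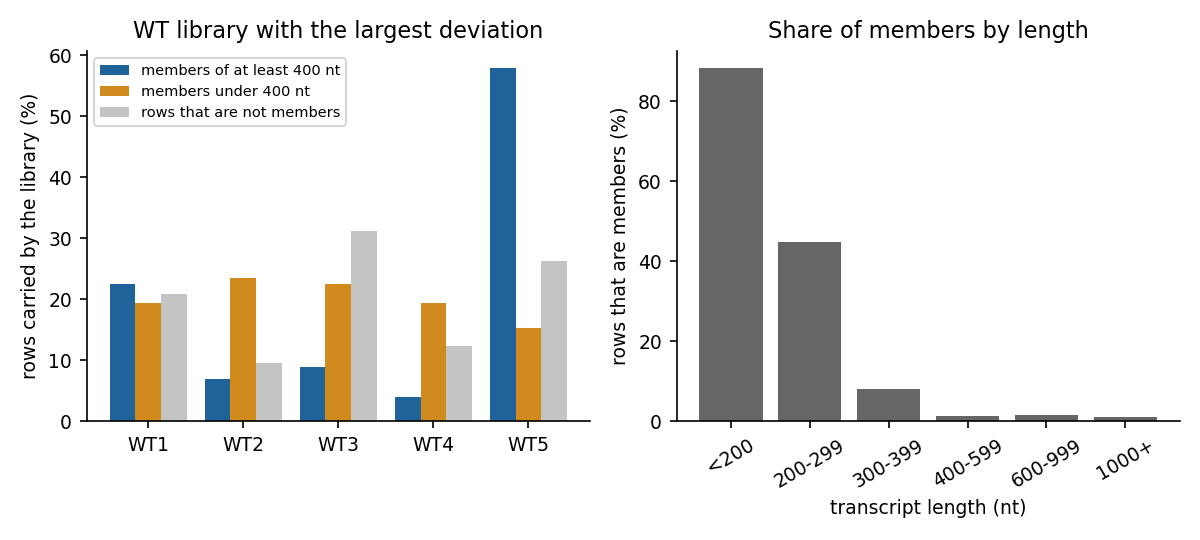
Left, the percentage of rows whose spread over the WT libraries was carried most by each library (largest squared deviation from the mean), for members of at least 400 nt, members under 400 nt and rows that are not members; WT5 stands out at 57.8% for the longer members. Right, the percentage of rows in each class of transcript length that were members, from 88.2% under 200 nt to 1.09% at 1000 nt or more.

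The variation ratio of the members in WT, which chose them, ran from 0.412 to 2.24 with a median of 0.575, and the median of all 9012 rows was 0.103. The largest value is the most that 5 libraries can give and was reached by 9 rows listed at 0 in all WT libraries but 1. At the lower end, the last 2 members were AKN2, an APS kinase, at 0.4123 and SIB1, a sigma factor binding protein, at 0.4121. Just outside were BME3, a GATA-type zinc finger factor, at 0.4118 and AT1G62515, an uncharacterized protein, at 0.4114, so the limit cuts through a continuous range.

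The OE libraries varied in many of the same genes. Among the 200 members, 124 were also among the 200 rows with the largest variation ratio in OE, which is 62% of either list, whereas 200 of the 9006 rows with an OE ratio make 2.22%. The median OE ratio of the members was 0.493, against 0.0935 over all 9006 rows. The 194 members with an OE ratio all lay above that overall median, and the other 6 were listed at 0 in every OE library. In most of them the spread was smaller than in WT: the ratio was larger in OE for 61 members and smaller for 133. That direction follows in part from the choice of members by their WT spread. Both kinds of member took part, with 51 of the 102 longer and 73 of the 98 shorter members among the 200 of OE. Of the next 200 rows by WT ratio, 34 were among them, with a median OE ratio of 0.297.

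**Figure D2:**
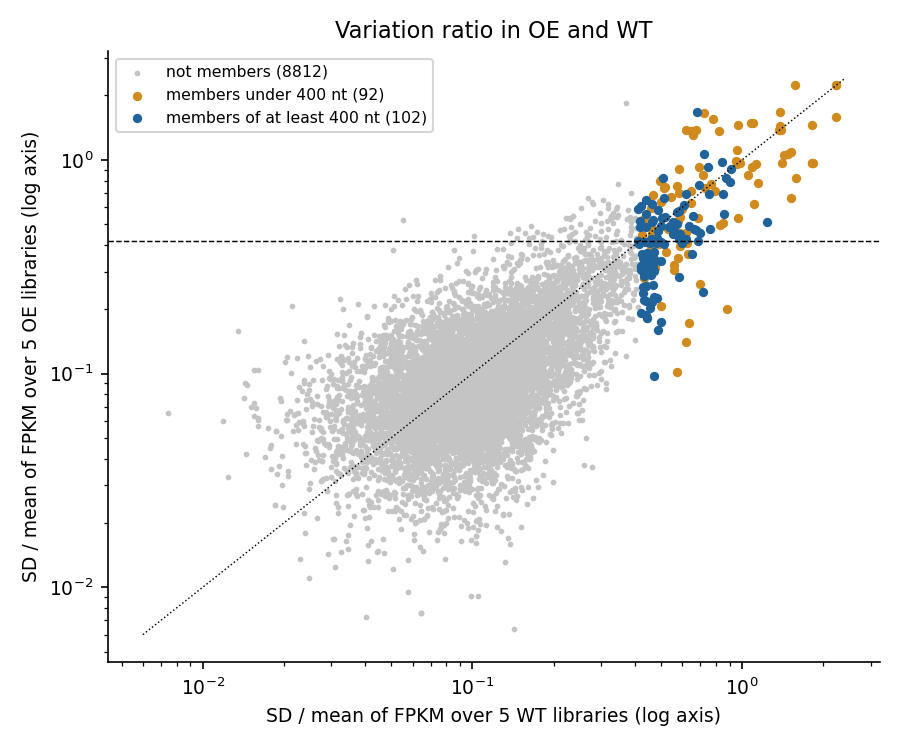
Variation ratio (SD divided by the mean of FPKM, log axes) over the 5 OE libraries against that over the 5 WT libraries, 1 point per row; 6 members at 0 in all OE libraries are not drawn. The dotted line marks equal ratios and the dashed line the lowest of the 200 largest OE ratios, 0.419; 124 members lie on or above it.

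WT5 weighed most in the list. For each member the WT library with the largest squared deviation from the mean was found, which held a median of 53.5% of the sum of squares. WT5 was that library for 74 members, WT1 for 42, WT3 for 31, WT2 for 30 and WT4 for 23, and in 166 of the 200 it lay above the mean. Among the 8812 other rows, WT3 came first with 31.1%, and WT5 had 26.2%. Split by length, WT5 carried 59 of the 102 longer members and WT1 carried 23, while the 98 shorter members were spread evenly, with 15 to 23 for each library. Plastid genes took 0.814% of the FPKM total in WT5 and 0.552% in WT1. Whether the plastid share bears on the spread was not tested. With OE4, WT2 and WT4 left out and the members chosen anew, an alternative added after seeing the data, 102 of 200 were shared between the lists.

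For the longer members the counting error could be estimated. An estimated 785 fragments stood behind the median longer member in a WT library, and 115 behind the least abundant, which predicts an SD of at most 9.31% of the mean from counting alone. The members were chosen for a larger ratio than this, so nothing is read from the gap. No such estimate was made for shorter rows, since 60 members were shorter than the assumed fragment.

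The longer members moved in 2 opposite blocs. Members were grouped by average linkage on the correlation of their log2(FPKM + 1) over the WT libraries, with the tree divided at a distance of 0.5; this used WT values and is a description. The larger group had 77 members, 52 of them of at least 400 nt, and will be called the ERD5 group; the second had 37 members, 32 of them longer, and will be called the APR3 group. Of the 52, 51 were highest in WT5 and 43 lowest in WT1. The 32 ran the other way, with 25 highest in WT1 and 25 lowest in WT5.

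The OE libraries, which had no part in the grouping, split in the same way by library number. The comparison of OE4 and OE5 with OE1 and OE2 was chosen after the groups had been seen and is a description. Of the 52 longer members of the ERD5 group, 44 were higher in both OE4 and OE5 than in both OE1 and OE2, and none was lower in both. Among the 32 of the APR3 group, 26 were lower in both OE4 and OE5 than in both OE1 and OE2, and none was higher. Over the 8716 rows of at least 400 nt that were not members, 25% had OE4 and OE5 above OE1 and OE2, and 17.1% had them below. In the next 200 rows by WT ratio, 43% had them above and 31% below, close to the 46.1% and 30.4% of all 102 longer members. Among the 98 shorter members 16 had them above (16.3%) and 16 below (16.3%). Where the non-member rows had WT4 and WT5 above WT1 and WT2 (2489 rows), 1236 had the same order in OE and 67 the opposite one, so the order was shared beyond the members.

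**Figure D3:**
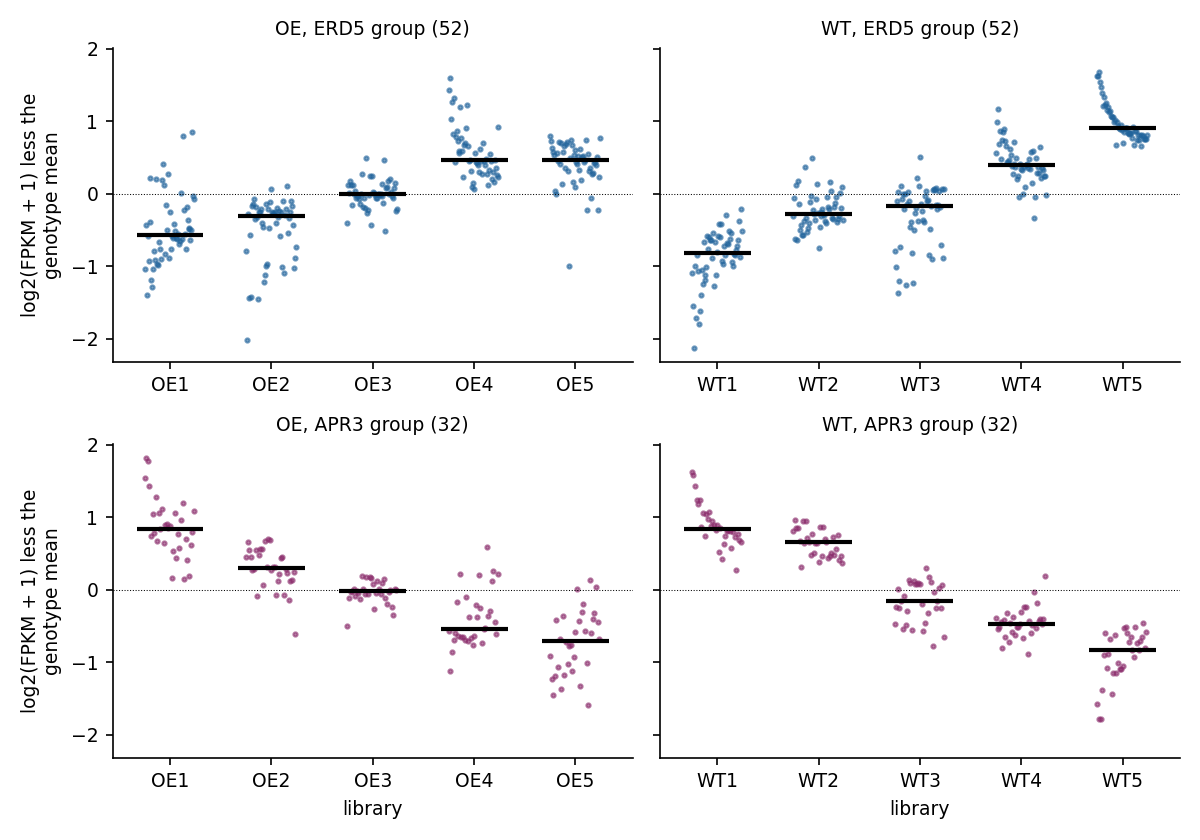
Log2(FPKM + 1) less the mean of the genotype in each OE library (left) and each WT library (right), for the longer members of the ERD5 group (top, 52 genes) and the APR3 group (bottom, 32 genes), 1 point per gene, with the median as a bar. In both genotypes libraries 4 and 5 lie above libraries 1 and 2 for most genes of the ERD5 group and below them for most genes of the APR3 group; libraries of a genotype have no order of their own.

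The ERD5 group held genes of amino acid breakdown and of the response to sugar starvation. The fixed list of sugar starvation genes had 10 genes that could have been chosen, of which 6 were: SEN1, BCE2, ASN1, AT2G33830, DYL1 and ERD5, all in this group. The others were DIN4, DIN10, BXL1 and bZIP1. DIN4, DIN10 and BXL1 were also lowest in library 1 of both genotypes, but BXL1 was highest in OE3 and WT3. bZIP1 had another order, falling from 49.1 FPKM in OE1 to 32 FPKM in OE5, and it was lowest in WT3. Among the 6 members, the highest in level were DYL1 and AT2G33830, both dormancy-associated proteins used as marks of growth arrest. DYL1 (AT1G28330) had 765, 902, 1088, 1317 and 1433 FPKM in OE1 to OE5, against 628, 819, 964, 1682 and 1686 FPKM in WT1 to WT5. AT2G33830 had 581, 722, 857, 1035 and 1230.0 FPKM in OE1 to OE5, against 553, 754, 936, 1387 and 1773 FPKM in WT1 to WT5. In both genes library 5 was high and library 1 low, and the genotypes overlapped.

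ERD5 (AT3G30775), the proline dehydrogenase that starts proline breakdown, had 186, 386, 425, 734 and 630.1 FPKM in OE1 to OE5, against 70.4, 174, 267, 448 and 621 FPKM in WT1 to WT5. Its highest value was 3.95 times the lowest in OE and 8.82 times in WT. ASN1 (AT3G47340), which makes asparagine for nitrogen transport and is a standard dark-induced gene, had 48.5, 79.2, 96.8, 166 and 166 FPKM in OE1 to OE5, against 38.9, 69.4, 104, 172 and 247 FPKM in WT1 to WT5. SEN1 (AT4G35770), a senescence and dark marker, had 64, 82.3, 133, 216 and 177 FPKM in OE1 to OE5, against 44.3, 94.5, 150.2, 269 and 412 FPKM in WT1 to WT5. Library 1 was the lowest of its genotype for all of these, and library 4 or 5 the highest.

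Some enzymes further along amino acid breakdown followed. A list of such enzymes was put together after the data had been seen; 7 of its 17 rows that could be chosen were members (BCE2, MCCA, ETFQO, GDH2, ERD5, PDS1 and HGO). GDH2 (AT5G07440), a subunit of the glutamate dehydrogenase that returns carbon to respiration, had 112, 169, 207, 312 and 344 FPKM in OE1 to OE5, against 75.2, 137, 179, 242 and 413 FPKM in WT1 to WT5. MCCA (AT1G03090), which acts in leucine breakdown, had 31.8, 53.6, 63.7, 97.1 and 101 FPKM in OE1 to OE5, against 24.3, 38.8, 57.6, 86.9 and 119.6 FPKM in WT1 to WT5. ETFQO (AT2G43400), which hands electrons from this breakdown to ubiquinone, had 11, 13.8, 17.2, 24.3 and 25.3 FPKM in OE1 to OE5, against 9.55, 12.4, 15.3, 21.4 and 30.1 FPKM in WT1 to WT5. BCE2 (AT3G06850), of the branched-chain keto acid dehydrogenase, spanned 24.5 to 54 FPKM in OE and 22.1 to 61.5 FPKM in WT. PDS1 and HGO, successive enzymes of tyrosine breakdown, spanned 21.3 to 41 and 14.9 to 28.9 FPKM in OE, against 18.5 to 61.9 and 15.2 to 46.1 FPKM in WT. For each of these 7 genes library 1 was the lowest of both genotypes. DIN4, another subunit of the branched-chain enzyme, stood at rank 234 of the WT ratios and so outside, with ratios of 0.297 in OE and 0.383 in WT. Other listed enzymes did not follow. GSTZ1 had ratios of 0.0748 in OE and 0.157 in WT. AT1G12050, a fumarylacetoacetase, had 0.111 in OE and 0.054 in WT, and was highest in library 1 of both genotypes. Over all 17 rows the median ratio was 0.233 in OE and 0.338 in WT.

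Carbohydrate enzymes were in the same group. MIOX2 (AT2G19800), a myo-inositol oxygenase, had 42.6, 94.2, 115, 233 and 177 FPKM in OE1 to OE5, against 11.8, 35.3, 51.1, 124 and 177 FPKM in WT1 to WT5. SIP2 (AT3G57520), of the family that releases sugar from raffinose, had 199.6, 328, 355, 665 and 579.6 FPKM in OE1 to OE5, against 109.9, 192, 218, 332 and 530.0 FPKM in WT1 to WT5. TPPG (AT4G22590), a trehalose-6-phosphate phosphatase, which dephosphorylates trehalose 6-phosphate, had 9.31, 11.2, 14.9, 55.9 and 35.6 FPKM in OE1 to OE5, against 4.49, 8.4, 5.76, 16.2 and 35 FPKM in WT1 to WT5. MIOX2 had the largest span in WT of the longer members, 14.9 times from lowest to highest. BMY3, a beta-amylase family protein, had 38.8, 71.5, 74.9, 97.2 and 63.6 FPKM in OE1 to OE5, against 18.7, 33.7, 40.6, 47.2 and 68.2 FPKM in WT1 to WT5. In SIP2, MIOX2 and TPPG, OE4 was the highest OE library, and OE5 came next.

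Some genes of the ERD5 group had another order of libraries in OE. XTH18 (AT4G30280), a cell wall xyloglucan enzyme, had 34.2, 10.2, 28.1, 69.3 and 32.5 FPKM in OE1 to OE5, against 22.4, 46.9, 14.6, 49.3 and 80.4 FPKM in WT1 to WT5. FBS1 (AT1G61340), a stress-induced F-box protein, had 32.1, 10.5, 34, 57 and 11.5 FPKM in OE1 to OE5, against 13.4, 30.5, 8.54, 35.7 and 34.6 FPKM in WT1 to WT5. Both were lowest in OE2 and WT3, whereas ERD5 was lowest in OE1 and WT1. BON1, a copine that restrains defence, spanned 10.4 to 38.6 FPKM in OE and 9.21 to 30.8 FPKM in WT with the same lowest libraries. The near-identical glutathione transferases, GSTF6 and GSTF7, are uncertain because fragments can be split between them; their ratios were 0.303 in OE and 0.473 in WT, and 0.487 in OE and 0.442 in WT. The members of this group with the highest mean in WT were DYL1, AT2G33830 and MIR2936, a microRNA precursor of 180 nt, which had 829, 404, 618, 1189 and 1153 FPKM in OE1 to OE5, against 473, 1260.4, 409, 1005 and 1376 FPKM in WT1 to WT5.

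The APR3 group included 4 of 4 sulfur starvation genes that could be chosen: APR1, APR2, APR3 and SHM7. APR2 (AT1G62180), one of the 3 APS reductases, had 126, 89.1, 68.8, 38 and 26.2 FPKM in OE1 to OE5, against 143, 114, 76.1, 49.7 and 24.9 FPKM in WT1 to WT5. APR3 (AT4G21990) had 95.1, 40.2, 26.6, 14.4 and 9.31 FPKM in OE1 to OE5, against 117, 78.4, 43.4, 29.9 and 11.8 FPKM in WT1 to WT5. APR1 (AT4G04610) had 48.3, 21.1, 11.9, 5.45 and 4.95 FPKM in OE1 to OE5, against 60.6, 38.9, 16.5, 13.2 and 5.0 FPKM in WT1 to WT5. All 3 were highest in library 1 and lowest in library 5 of both genotypes, and their OE and WT ranges overlapped. SHM7 (AT1G36370), a serine hydroxymethyltransferase of one-carbon metabolism, had 54.6, 27.3, 19.4, 11.8 and 8.04 FPKM in OE1 to OE5, against 67.8, 51.8, 23.5, 20.7 and 10.3 FPKM in WT1 to WT5. All 4 were among the 200 most variable rows of OE as well, and their median ratio was 0.847 in OE and 0.718 in WT.

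Glucosinolates, the sulfur-rich defence compounds of the cabbage family, draw on the same sulfate. A list that joins sulfate assimilation and the synthesis of methionine-derived glucosinolates was made after the data had been seen; 7 of its 19 rows that could be chosen were members. CYP79F1 (AT1G16410), which converts chain-elongated methionine, had 43.2, 44, 30.8, 16.3 and 15.5 FPKM in OE1 to OE5, against 45.5, 42.3, 26.7, 15.4 and 10.4 FPKM in WT1 to WT5. IPMI1 (AT3G58990), of the chain elongation steps, had 33, 26.9, 18.2, 10.7 and 10.5 FPKM in OE1 to OE5, against 35.8, 28.8, 19.1, 11.6 and 7.5 FPKM in WT1 to WT5. AKN2, which activates sulfate for sulfation, spanned 17.2 to 47 FPKM in OE and 16.2 to 47.5 FPKM in WT. In these 3 genes libraries 1 and 2 were above libraries 4 and 5 in both genotypes. From the fixed list of 14 glucosinolate and myrosinase rows that could be chosen, CYP79F1 was the only member.

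Other members of the APR3 group had different roles. Its highest mean in WT among the members belonged to AT1G73600, a methyltransferase, which had 220.2, 191, 132, 73 and 53.4 FPKM in OE1 to OE5, against 209, 176, 119, 78.4 and 52.2 FPKM in WT1 to WT5. XPL1, a phosphoethanolamine methyltransferase of phosphatidylcholine synthesis, had 59.3, 42.4, 35.4, 29.2 and 23.5 FPKM in OE1 to OE5, against 85.6, 68.5, 41, 42.9 and 27 FPKM in WT1 to WT5. MYBR1 (AT5G67300), a MYB transcription factor of stress responses, had 90.6, 63.3, 51.2, 31.6 and 22.4 FPKM in OE1 to OE5, against 107, 83.2, 64.9, 42.7 and 31.2 FPKM in WT1 to WT5. The pair of methyltransferases and MYBR1 were each highest in library 1 and lowest in library 5. AT2G08470, a non-coding RNA of 265 nt, had 101, 109, 48.9, 33.9 and 68 FPKM in OE1 to OE5, against 90.5, 113, 55.3, 45.5 and 38.7 FPKM in WT1 to WT5.

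**Figure D4:**
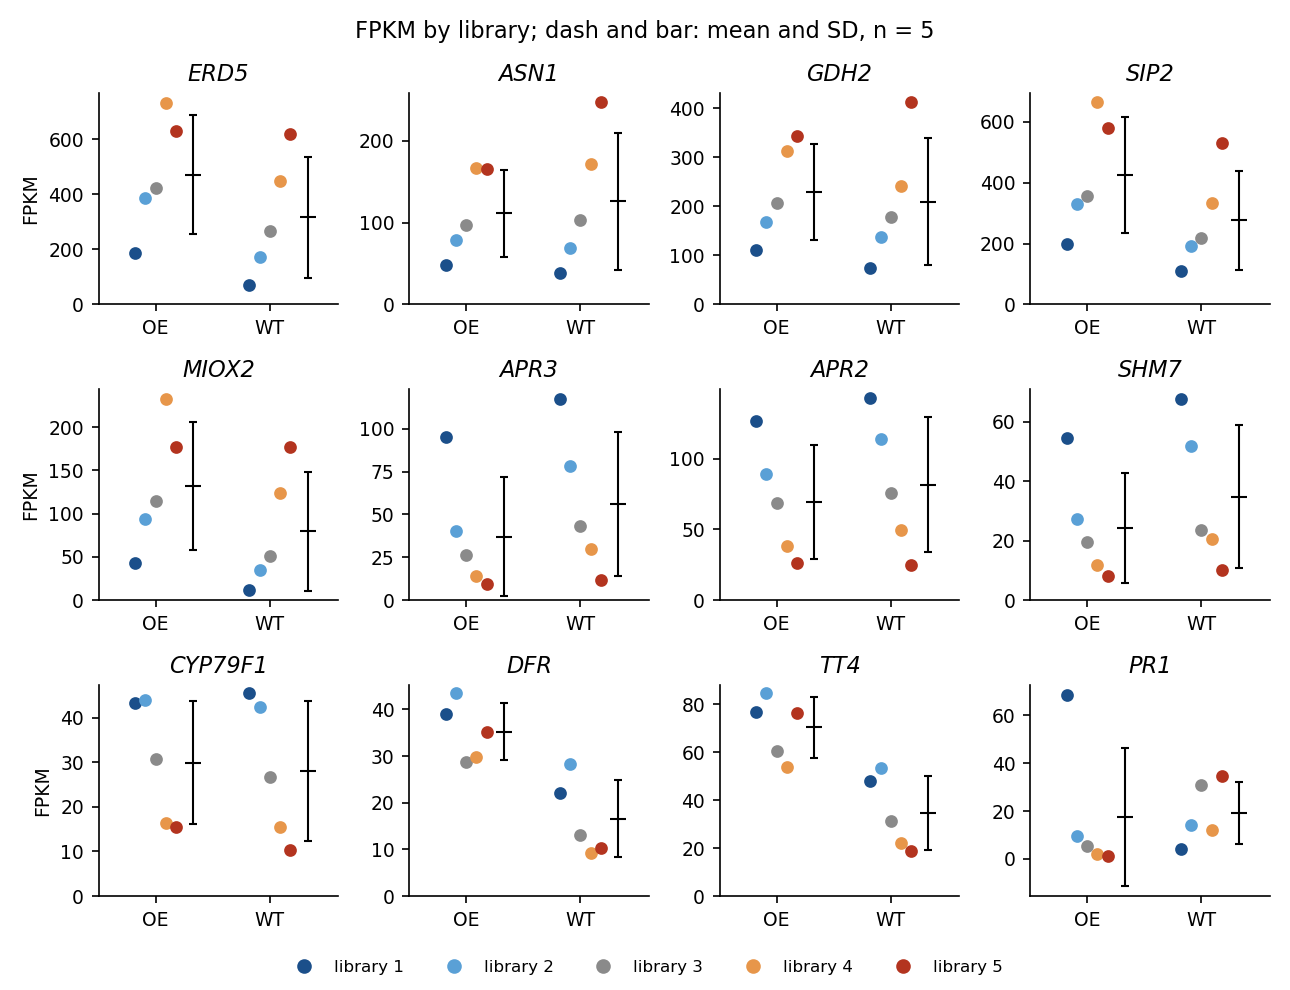
FPKM in each of the 5 OE libraries (left of each panel) and the 5 WT libraries (right), coloured by library number, with the mean and SD beside them (n = 5 each), for 12 members. ERD5 is low in library 1 of both genotypes and APR3 low in library 5; DFR and TT4 show the 5 OE libraries above the 5 WT libraries, and PR1 has OE1 far above the other OE libraries.

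Enzymes of flavonoid and anthocyanin synthesis were members in 3 of 4 rows that could be chosen. All 3 had a smaller variation ratio in OE, as did 133 of the 200 members, which follows in part from the choice by WT spread. DFR (AT5G42800), dihydroflavonol reductase of the anthocyanin branch, had 39.1, 43.5, 28.8, 29.9 and 35.1 FPKM in OE1 to OE5, against 22.2, 28.3, 13.1, 9.17 and 10.2 FPKM in WT1 to WT5. TT4 (AT5G13930), the chalcone synthase that starts the pathway, had 76.9, 84.6, 60.5, 53.8 and 76.1 FPKM in OE1 to OE5, against 48, 53.5, 31.3, 22 and 18.8 FPKM in WT1 to WT5. LDOX (AT4G22880), the anthocyanidin-forming dioxygenase, had 28.2, 24.5, 15.8, 10.6 and 13.3 FPKM in OE1 to OE5, against 18, 20.9, 8.32, 5.9 and 6.07 FPKM in WT1 to WT5. For DFR and TT4 every OE library lay above every WT library, whereas the LDOX ranges overlapped. They were the 2 members of the 200 whose genotypes did not overlap, against 1033 of the 17713 rows with a mean of at least 1 FPKM (5.83%). Their ratios were 0.175 in OE and 0.50 in WT for DFR, 0.181 in OE and 0.445 in WT for TT4 and 0.408 in OE and 0.599 in WT for LDOX.

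The difference between OE and WT was tested over all 17713 rows with a mean of at least 1 FPKM, by limma on log2(FPKM + 1) with Benjamini-Hochberg adjustment. All 200 members were tested, and 1 passed an adjusted p of 0.05, where 512 rows or 2.89% passed in all. That was DFR, with 35.3 ± 6.17 FPKM in OE and 16.6 ± 8.3 FPKM in WT (SD, n = 5 each), a log2 difference of 1.15 (SE 0.27; limma adjusted p = 0.0489). TT4, at 70.4 ± 12.7 FPKM in OE and 34.7 ± 15.5 FPKM in WT (SD, n = 5 each), missed it at a log2 difference of 1.09 (SE 0.27; limma adjusted p = 0.0557). The DFR call did not hold without any 1 of 8 of the 10 libraries, with an adjusted p of up to 0.131 (limma), nor under median-ratio scaling (limma adjusted p = 0.0502). The median log2 difference over the members was -0.04, with 98 above 0 and 102 below, and over all tested rows it was 0.00. With a median SE of 0.43, against 0.11 over all tested rows, a difference had to be large to pass in these genes. The WT libraries that chose the members by their spread also entered this test. The larger SE therefore follows in part from that choice, and nothing is read from the count of members that passed. In the 7 fixed lists that held members, limma passed 2 of 14 tested flavonoid genes, DFR higher in OE and the repressor MYBL2 lower, and 2 of 18 glucosinolate and myrosinase genes, the myrosinases TGG1 and TGG2, both lower and neither a member. It passed 0 of 13 sugar starvation genes (1 at an unadjusted p under 0.05), 0 of 9 sulfur starvation genes (0), 0 of 11 salicylic acid genes (0), 0 of 18 touch and rapid stress genes (1) and 0 of 4 ribosomal RNA rows (0).

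These calls changed when the library number was fitted as a block, which sets each OE library against the WT library of the same number. With the block, limma passed 17 members, where 781 of the 17713 rows or 4.41% passed in all. The members were chosen by WT spread, and the block takes out spread shared by library number. The count among members is thus not independent of their choice, and nothing is read from it. Of the 17, 11 were higher in OE and 6 lower. In the ERD5 group 8 were higher, among them SIP2 (log2 difference 0.69, SE 0.12; limma adjusted p = 0.0208), MIOX2 and BMY3, with GDPD2, AT1G30820, ACR9, AT1G62480 and AT3G54880, and BGAL4 was lower. In the APR3 group 5 were lower, APR3 (-0.65, SE 0.12; limma adjusted p = 0.0291), SHM7, MYBR1, XPL1 and DFL2, and 3 were higher, DFR, TT4 (limma adjusted p = 0.0209) and LDOX (limma adjusted p = 0.0197). By list the block passed 2 of 9 sulfur starvation genes, APR3 and SHM7, 5 of 14 flavonoid genes and 1 of 13 sugar starvation genes, BXL1, which is not a member. The labels do not say that a number marks a shared culture or day, so these values stand beside the unblocked ones as an alternative.

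Genes of defence and of rapid stress responses were also among the members. Of 7 salicylic acid genes that could be chosen, 3 were members. PR1 (AT2G14610), the pathogenesis-related protein that marks salicylic acid signalling, had 68.6, 9.59, 5.18, 2.01 and 1.2 FPKM in OE1 to OE5, against 4.23, 14, 30.9, 11.9 and 34.7 FPKM in WT1 to WT5. OE1 stood far above the other OE libraries, and WT1 was the lowest of WT. PCC1 (AT3G22231), a small protein of defence, had 73.6, 42.2, 70.1, 67.1 and 74.3 FPKM in OE1 to OE5, against 40.9, 84.5, 97, 27.8 and 81.8 FPKM in WT1 to WT5. WRKY70 (AT3G56400), a transcription factor of that response and the 1 of the 3 in the APR3 group, had 79, 37.8, 34.6, 33.3 and 17.1 FPKM in OE1 to OE5, against 89.5, 59.3, 28.2, 32.3 and 27.1 FPKM in WT1 to WT5. LURP1, induced in defence against oomycetes, varied little in OE at 24.3 to 36.4 FPKM, against 15.4 to 57.9 FPKM in WT.

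RHL41, a zinc finger factor of oxidative stress, and WRKY40, a WRKY factor of early defence, were the 2 members of 12 touch and rapid stress genes that could be chosen. WRKY40 (AT1G80840) had 38.5, 12.2, 23.8, 40.5 and 7.75 FPKM in OE1 to OE5, against 16.6, 32.6, 9.18, 27.2 and 22.2 FPKM in WT1 to WT5. RHL41 (AT5G59820) had 25.9, 6.95, 13.3, 21 and 4.02 FPKM in OE1 to OE5, against 10.1, 17.6, 4.22, 14.3 and 10.8 FPKM in WT1 to WT5. In both WT2 was highest and WT3 lowest, while OE5 was lowest, and OE1 or OE4 highest. Of the 18 longer members outside the ERD5 and APR3 groups, 4 had libraries 4 and 5 on the same side of libraries 1 and 2 in both genotypes. AT2G35736, an uncharacterized protein and the longer member of largest WT ratio, owed it to WT3, at 55.8 FPKM against 6.99 to 8.89 FPKM in the other WT libraries; it spanned 5.99 to 19 FPKM in OE. AT3G19680, a protein of unknown function, spanned 57.3 to 153 FPKM in OE and 62.2 to 213 FPKM in WT.

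The smaller groups with at least 8 members numbered 6, of 17, 14, 11, 10, 10 and 9 members, and most of their members were under 400 nt. Among the 3 rows of highest WT mean in each were AT4G08815, AT1G06283, AT1G08753, AT3G01525, AT5G05735 and AT4G07975. AT4G08815, a non-coding RNA, had 71.4, 55.3, 46.2, 47.4 and 57.2 FPKM in OE1 to OE5, against 49.5, 66.9, 45.9, 14 and 40.1 FPKM in WT1 to WT5. AT1G08753, another, had 11.2, 10.4, 57.6, 26.7 and 23.5 FPKM in OE1 to OE5, against 43.9, 37.1, 8.73, 42.6 and 19.3 FPKM in WT1 to WT5. AT1G08753 was highest in OE3 but lowest in WT3, and both RNAs overlapped between the genotypes. AT4G07975, an antisense RNA, had 11.9, 29.8, 40.3, 88.3 and 18.4 FPKM in OE1 to OE5, against 50.4, 8.85, 33.9, 52.1 and 61.3 FPKM in WT1 to WT5.

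Across the 102 longer members, the deviations of same-numbered OE and WT libraries from their genotype means had correlations of 0.69, 0.40, 0.12, 0.69 and 0.69 for numbers 1 to 5. Differently numbered libraries reached the same size, such as 0.76 for OE4 with WT5 and -0.65 for OE5 with WT1. For the 98 shorter members the same 5 values lay between -0.32 and -0.05. These are correlations across genes that share the libraries, so they describe the pattern and carry no test. The labels do not say what a library number stands for.

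No member came from 12 of the 19 fixed lists. Of 17 circadian clock genes that could be chosen, none was a member, with a median ratio of 0.162 in OE and 0.124 in WT. There was also none among 14 nitrate response genes (0.134 in OE and 0.125 in WT), 10 cold, drought and abscisic acid genes (0.253 in OE and 0.215 in WT) and 9 iron and copper genes (0.102 in OE and 0.204 in WT). No heat shock gene of the list reached 10 FPKM in WT.

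The shorter members include structural RNAs, which lack the poly(A) tails of mRNAs, and rows shorter than the assumed fragment. The U6 snRNA, part of the catalytic core of the spliceosome, is encoded by several near-identical genes, of which 4 were among the 20 members of largest WT ratio. U6-1 had 136, 142, 212, 0 and 0 FPKM in OE1 to OE5, against 0, 0, 0, 912 and 175 FPKM in WT1 to WT5. U6.4 had the same value in all 10 libraries to 3 decimals, and U6.3 in 9 of 10. Fragments from near-identical copies can be split between them, so these rows are uncertain one by one. U6-26 had the value of U6-1 in 6 of 10 libraries and differed most in OE1, at 3.32 FPKM. In U6-1 WT4 was highest, and 2 OE and 3 WT libraries were listed at 0. U2.11, of the U2 snRNA, was detected throughout, with 99.7, 138, 87.4, 94.4 and 92 FPKM in OE1 to OE5, against 42.7, 9.93, 146, 30.4 and 72.6 FPKM in WT1 to WT5.

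snoRNAs guide the chemical modification of ribosomal RNA. The shortest member, AT3G47347, was the extreme case, with 15707 FPKM in WT4 and a listed 0 in the other 9 libraries. Its 77 bases on chromosome 3, from RefSeq, are given with the letters TGATGA and CTGA, which match the C and D boxes of box C/D snoRNAs, in capitals.
AT3G47347: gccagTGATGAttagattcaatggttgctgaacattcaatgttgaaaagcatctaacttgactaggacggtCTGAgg

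SNOR108 (AT5G41471) had 883, 469, 0, 0 and 372 FPKM in OE1 to OE5, against 0, 0, 1030.1, 539 and 0 FPKM in WT1 to WT5. Its OE and WT libraries each mixed values of 372 FPKM or more with listed zeros. The other snoRNAs among the 20 members of largest WT ratio were SNOR37-2, AT4G39361, AT5G07725, AT1G09027 and AT4G39363. All had at least 3 WT libraries listed at 0. The rest of these 20 were the antisense RNAs AT2G09735 and AT2G09785, the short protein-coding rows AT3G45851, AT4G31441, AT2G12461 and AT5G14560, the microRNA precursor MIR4228, the snRNA U1.5 and the 5.8S ribosomal RNA AT3G41979. Of the 98 shorter members, between 18 and 30 were listed at 0 in a given OE library and between 17 and 30 in a given WT library.

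The 5.8S ribosomal RNA row had 1349, 2503, 794, 5779 and 595 FPKM in OE1 to OE5, against 481, 205, 4647, 130.0 and 0.0565 FPKM in WT1 to WT5. It was highest in OE4 and WT3, and in WT5 it was near 0. The other ribosomal RNA rows of the fixed list were not near 0 in WT5. AT2G01020, also of 164 nt, had 3530 FPKM there, and the 18S rows AT3G41768 and AT2G01010 had 546 and 316 FPKM. The low WT5 value thus describes this row and not ribosomal RNA in that library. AT2G01021, an uncharacterized protein-coding row of 102 nt, had 1474, 1539, 0, 4566 and 4811 FPKM in OE1 to OE5, against 1006, 0, 3237, 3323 and 3179.8 FPKM in WT1 to WT5. The counting of antisense rows is not stated to have used strand, so reads of an antisense RNA and its partner cannot be told apart.

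**Figure D5:**
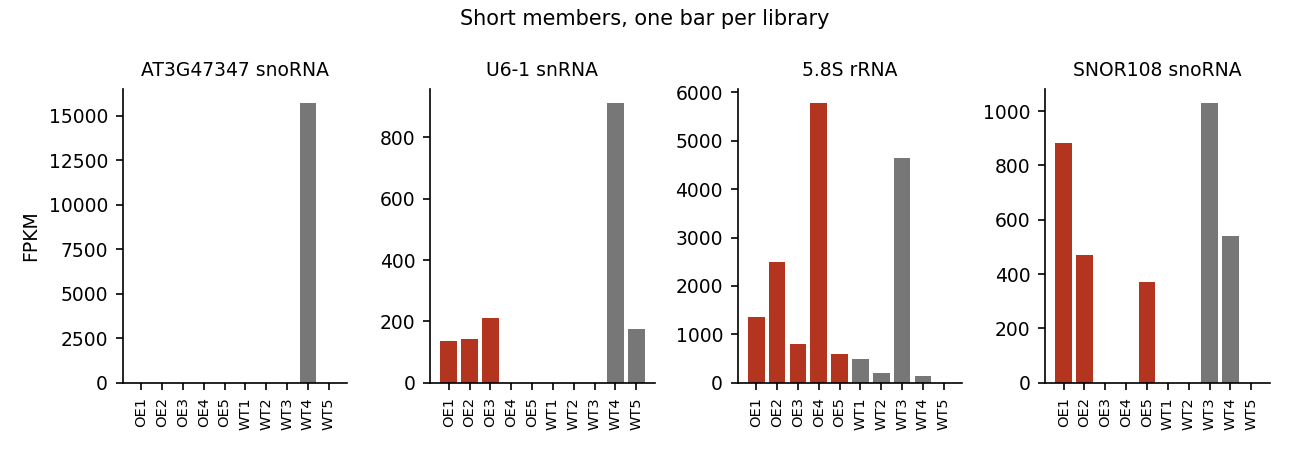
FPKM (bars from 0) in OE1 to OE5 (left) and WT1 to WT5 (right) for 4 members under 400 nt, with 1 bar per library. Each has libraries listed at 0 or near 0 beside libraries at far higher FPKM, and the high libraries differ between the RNAs.

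The members that varied least in OE were AT1G32460, AT1G08003, AT5G03965, LURP1 and AT3G02505. AT1G32460, an uncharacterized protein, had 14.5, 18.2, 17.6, 18.3 and 18.6 FPKM in OE1 to OE5, against 7.63, 8.0, 20.3, 18.1 and 23.5 FPKM in WT1 to WT5. WT1 and WT2 were low in that gene, and no OE library was. The non-coding RNA AT1G08003 had 36.9, 38.3, 36.5, 31.6 and 30.3 FPKM in OE1 to OE5, against 7.61, 17.8, 39.9, 18.6 and 18.5 FPKM in WT1 to WT5. At the other end, the largest OE ratios were those of AT1G09027, AT2G12461, AT5G14560, AT3G04165, PR1, MIR5021, AT4G39361, AT5G27889, AT4G39364 and AT5G51915. PR1 was the only one of these 10 of at least 400 nt.

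Conversely, 76 of the 200 most variable rows of OE were not members, 8 of them under 400 nt and 68 longer. LTI78 (AT5G52310), a cold and abscisic acid gene, had 36.8, 18.3, 13.2, 9.52 and 3.77 FPKM in OE1 to OE5, against 22.3, 27.5, 17.4, 16.3 and 10.3 FPKM in WT1 to WT5. PDF1.2 (AT5G44420), a defensin induced by jasmonate and ethylene, had 136, 95.6, 28.2, 19.5 and 67.1 FPKM in OE1 to OE5, against 34, 17.7, 27.7, 11.7 and 31.7 FPKM in WT1 to WT5. WRKY33 (AT2G38470), a factor of fungal resistance, had 38.1, 14.2, 34.4, 62.1 and 13 FPKM in OE1 to OE5, against 41.7, 43.7, 18.6, 40 and 40.9 FPKM in WT1 to WT5. OE1 was the highest OE library for LTI78 and PDF1.2 and OE4 for WRKY33, while the WT values of WRKY33 were level apart from a low WT3. Of the 12 touch and rapid stress genes, 10 were among the 200 of OE, and 2 were members.

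Promoters of the longer members were searched for 9 short motifs on both strands, in the 250 bases before and 50 after the annotated start. The G-box CACGTG, bound by bZIP, bHLH and other factors, was present in 9 of 52 promoters of the ERD5 group (17.3%), in 4 of 32 of the APR3 group (12.5%) and in 7.68% of 27443 protein-coding promoters. TTGACC was in 25%, 15.6% and 14.2% in the same order, and GAANNTTC in 23.1%, 18.8% and 11.6%. The evening-element letters AAAATATCT were in 3.85%, 6.25% and 2.82%, AAAAATCT in 7.69%, 6.25% and 7.88%, and CCGAC in 15.4%, 25% and 15%. For AAACCCTAA the shares were 3.85%, 0% (0 of 32) and 3.6%, for AGCCGCC 1.92%, 3.13% and 0.794%, and for TGACG 28.8%, 28.1% and 23.1%. Among the 8763 promoters of rows that could have been members, CACGTG was in 9.47%, TTGACC in 13.8% and GAANNTTC in 11.1%. There AAAATATCT was in 3.49%, AAAAATCT in 8.7%, CCGAC in 16.8%, AAACCCTAA in 3.25%, AGCCGCC in 0.867% and TGACG in 24.2%. None of the motifs contains another, and a match describes letters only.

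These promoters with a G-box are shown because their genes carry the patterns above, ASN1 and SIP2 for the ERD5 group and TT4 and DFR for the APR3 group. Each is the 250 bases before the annotated start, 5′ to 3′ along the gene, from RefSeq TAIR10.1 (chromosome 3 for ASN1 and SIP2, 5 for TT4 and DFR), with the G-box in capitals.
ASN1: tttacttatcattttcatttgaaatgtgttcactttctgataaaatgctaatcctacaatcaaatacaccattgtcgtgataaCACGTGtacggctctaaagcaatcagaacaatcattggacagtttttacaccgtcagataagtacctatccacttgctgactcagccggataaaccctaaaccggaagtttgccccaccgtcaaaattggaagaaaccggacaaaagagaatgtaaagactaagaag
SIP2: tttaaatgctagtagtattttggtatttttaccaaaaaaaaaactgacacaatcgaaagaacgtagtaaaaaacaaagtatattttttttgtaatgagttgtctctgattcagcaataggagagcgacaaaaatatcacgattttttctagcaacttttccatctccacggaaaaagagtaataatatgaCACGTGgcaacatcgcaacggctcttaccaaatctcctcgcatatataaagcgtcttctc
TT4: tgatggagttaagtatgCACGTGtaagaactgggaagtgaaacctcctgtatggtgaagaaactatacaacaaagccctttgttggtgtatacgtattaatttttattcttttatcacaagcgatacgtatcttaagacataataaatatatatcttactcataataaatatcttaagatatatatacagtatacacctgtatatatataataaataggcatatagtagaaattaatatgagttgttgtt
DFR: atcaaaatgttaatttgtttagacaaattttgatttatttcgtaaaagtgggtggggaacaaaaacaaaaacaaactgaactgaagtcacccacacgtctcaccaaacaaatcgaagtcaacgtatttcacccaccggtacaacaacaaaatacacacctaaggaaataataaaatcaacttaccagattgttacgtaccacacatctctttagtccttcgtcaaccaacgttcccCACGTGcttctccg

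The G-box began at -167 in ASN1, -60 in SIP2, -233 in TT4 and -14 in DFR, counted from the annotated start. ASN1 and SIP2 were lowest in library 1 of both genotypes, and TT4 and DFR were highest in library 2, so genes with the same letters stood on opposite sides.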

How the data were processed

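The values are FPKM, which the authors scaled to transcript length and library total, as the deposited table is named; each column was matched to its sample by title. FastQC, kallisto, R 3.5.1, sleuth and Trimmomatic 0.36 appear in the submitters' processing notes, with no role given. The annotation and build used are not given here. Symbols, lengths, biotypes and sequences came from RefSeq TAIR10.1. No column was rescaled.

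The members and gene lists were chosen with earlier results of these data known. The table held no counts; depth was estimated from single-transcript rows of at least 800 nt, where 64.6% to 82.5% of low values lay within 0.05 of a whole fragment. OE was compared with WT in limma 3.58.1 (R 4.3.3) on log2(FPKM + 1) with a variance trend, two-sided, over rows with a mean of at least 1 FPKM; the threshold was a Benjamini-Hochberg adjusted p under 0.05. The fit and the ranking were tested on simulated data.

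Named genes were the 20 members of largest WT ratio; per list with 3 or more members, and per group with 8 or more, the 3 of highest WT mean; members past the threshold; the 10 largest and 5 smallest OE ratios; and the 2 rows on either side of the limit. Others were named after their values were seen. Sequences of the U6 rows are not reported here. Alternatives were other scalings, limits, measures, filters, pseudocounts and left-out libraries.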

Additional observations from a re-analysis of the deposited data

Results flagged for a closer look

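In these rows 1 library lay far from the other 4 of its genotype, by its gap to the nearest library as a share of the genotype's range (limit 0.71 for 5 libraries). Chance marks about 1 group in 20. Over all 9012 rows with a WT mean of at least 10 FPKM, 4.25% were marked in OE and 5.09% in WT; among the 200 members, 9 (4.5%) were in OE and 22 (11%) in WT. The WT values chose the members, so the WT marks are not independent of it.

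In OE, the share was 0.876 for PR1 (OE1 high), 0.775 for PCC1 (OE2 low), 0.753 for AT1G32460 (OE1 low) and 0.758 for U2.11 (OE2 high). AT1G62515, just outside the list, had 0.754 in OE (OE3 high). AT1G09027, AT2G12461 and AT5G14560 were detected in 1 OE library each, which gives 1. In WT the share was 1 for AT2G09735, AT3G45851, AT3G47347, SNOR37-2, AT4G31441, AT4G39361, AT5G07725, AT1G09027 and AT2G12461, each detected in 1 WT library. It was 0.897 for the ribosomal RNA AT3G41979 (WT3 high), 0.808 for U6-26, U6-1 and U6.4 and 0.718 for U6.3 (WT4 high), near-identical rows whose values are not independent.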

How the results depend on the processing

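The overlap with the 200 most variable rows of OE kept to within 1.5 times of 124 under each scaling, limit and measure tried at 200 members (117 to 129). Without any 1 library it was 110 to 133, with members chosen anew where a WT library was left out and unchanged where an OE library was. It was 101 with rows of at least 400 nt only and 102 without OE4, WT2 and WT4, both added after seeing the data. With lists of 100 and 400 rows it was 64 and 245. The median OE ratio of the members was 0.460 to 0.545 without any 1 library and 0.767 for a list of 100; as an SD of log2(FPKM + 1) it was 0.745, and less its running median over genes of like level 0.397, which are other measures. WT5 carried the most members under all alternatives tried (59 to 109, against 74).

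The count of members that differed between OE and WT was 1, where 2.89% of all tested rows passed. It was 0 under median-ratio scaling (3.28% of all rows), rescaling to nuclear rows (2.65%), no filter (1.73%) and no variance trend (2.16%). Without OE4, WT2 and WT4 it was also 0, but there 0 of all 17684 rows passed, so nothing is read from it. With a filter at 5 FPKM the count was 2 (4.73%), and without any 1 library 0 to 3 (1.17% to 3.03%). In the settings with 0, limma gave 8 to 23 members an unadjusted p under 0.05. DFR was higher in OE in each setting (log2 0.98 to 1.37). Same-numbered libraries had correlations of 0.20, -0.04, -0.09, 0.07 and 0.18 over all 17713 tested rows. Over the 8716 rows of at least 400 nt and 10 FPKM that are not members, they had 0.54, 0.12, 0.24, 0.29 and 0.45. The size of the correlation thus depends on the rows used, and the labels do not say whether the numbers pair the samples. Over those 8716 rows, 2 of 5 WT libraries correlated best with their own number. With the replicate number as a block, 17 members and 781 rows (4.41%) passed. No counting error was estimated for the shorter members.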
